A study of Homo sapiens with 12 samples.

Results

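The Krüppel-like factors (KLFs) were followed here in MDA-MB-231 cells, an established human triple-negative breast cancer (TNBC) line, as 10 members chosen by gene symbol (KLF2, KLF3, KLF4, KLF5, KLF6, KLF7, KLF10, KLF11, KLF13 and KLF16) of the 19907 gene symbols measured by RNA-seq. The wt-GR and S134A-GR lines both came from a CRISPR/Cas9 targeting of NR3C1, the gene of the glucocorticoid receptor (GR). The S134A-GR line (clone #1) carries a serine-to-alanine substitution at the GR residue in its name, and the wt-GR line is a clone from the same procedure that kept the wild-type sequence. After starvation for 18 h in medium with 1% DCC (charcoal-stripped serum), both lines received vehicle or 10 ng/mL of TGFβ1, without an added GR ligand, and were taken at 6 h. Each of the 4 groups had 3 libraries. Each line is 1 clone, so that the S134A substitution and any other difference between the clones cannot be told apart. The labels do not say whether the 3 libraries of a group came from separate cultures, and the p-values measure only the spread between these libraries, which may be technical.

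KLFs are transcription factors with a row of C-terminal zinc fingers of the C2H2 type, which bind GC-rich and CACCC elements, as the related SP factors do. Their N-terminal regions differ and set their roles. KLF2, KLF4, KLF5, KLF6 and KLF7 carry activation domains, KLF3 represses through the corepressor CtBP, and KLF10, KLF11, KLF13 and KLF16 carry a short motif that binds the corepressor SIN3. KLF10 and KLF11 were first described as TGFβ-inducible early genes, KLF2 and KLF4 are known for keeping endothelial cells quiescent, and KLF4 and KLF5 are known for their roles in epithelial cells. Several KLFs are also known as targets of steroid receptors.

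Among the 10 members, the transcript with the largest increase under TGFβ1 was that of KLF7 and the one with the largest decrease was that of KLF2, with KLF4 the other activator-type member that rose in both lines. The 250 bases before the start sites of these 3 genes are given to show where elements that KLF and SP factors bind lie in them. The sequences are those of RefSeq on GRCh38.p14, read 5′ to 3′ on the strand of the gene. Capitals mark GGGCGG (the GC box), CACCC and, in KLF2, the MEF2 consensus, each on either strand.
KLF7, chr2:207165949-207166198, minus strand: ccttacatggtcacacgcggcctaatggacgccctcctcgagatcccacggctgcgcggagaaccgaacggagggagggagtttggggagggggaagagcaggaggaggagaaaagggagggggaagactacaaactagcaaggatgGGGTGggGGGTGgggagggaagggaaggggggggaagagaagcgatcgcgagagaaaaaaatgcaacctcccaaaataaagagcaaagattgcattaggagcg
KLF4, chr9:107489770-107490019, minus strand: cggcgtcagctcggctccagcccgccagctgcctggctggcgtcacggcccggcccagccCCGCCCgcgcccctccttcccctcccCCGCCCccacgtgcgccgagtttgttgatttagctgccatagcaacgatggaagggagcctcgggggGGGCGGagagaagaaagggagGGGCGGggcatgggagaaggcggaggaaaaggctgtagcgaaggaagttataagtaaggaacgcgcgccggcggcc
KLF2, chr19:16324576-16324825, plus strand: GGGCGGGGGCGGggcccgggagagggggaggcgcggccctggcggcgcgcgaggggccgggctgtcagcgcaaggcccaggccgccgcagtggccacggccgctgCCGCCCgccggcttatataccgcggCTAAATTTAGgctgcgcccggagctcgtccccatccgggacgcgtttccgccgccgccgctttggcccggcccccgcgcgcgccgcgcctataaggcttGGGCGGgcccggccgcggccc
The KLF7 stretch held no GC box and a pair of CACCC elements, whereas those of KLF4 and KLF2 held 4 GC boxes each and no CACCC element. The KLF2 stretch also held a match to the MEF2 consensus that started 120 bases before the start site. MEF2 factors act downstream of the MEK5-ERK5 kinases and are known activators of KLF2. That motif was added to the search after the KLF2 sequence had been seen.

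A window from 250 bases before to 50 after the start was on hand for 8 of the 10 members, all but KLF3 and KLF10, and for 35116 starts in all. Both strands were searched. GGGCGG was found in 7 of the 8 members, against 45.0% of all windows, and it was absent from the KLF7 window. KLF5, KLF7 and KLF11 had 2, 4 and 2 start sites with a window, of which the one nearest to the start of the canonical transcript was searched. CACCC was found in 3 of 8 (KLF5, KLF7 and KLF13; 59.9% of all windows). CAGAC, the SMAD-binding element, was found in 3 of 8 (KLF4, KLF11 and KLF13; 45.3%). The shorter SMAD element GTCT, which every CAGAC match also holds on the other strand, was found in 5 of 8 (the same 3, KLF6 and KLF7; 84.0%). ACANNNTGT, the spaced palindrome of the GR-binding element, was found in 0 of 8 (5.37%), and the MEF2 consensus in 1 of 8 (2.99%). The start site of the KLF11 window lay 279 bases from the start of its canonical transcript. The GC content of the windows ran from 56.7% (KLF7) to 86% (KLF16). These are matches of letters in short windows and say nothing about binding.

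All 10 members were well covered. In units of 1e6 reads, recovered library totals ran from 56.4 to 129.8, and the member with the fewest reads, KLF13, had 10781 reads over the 12 libraries. These totals exceed the average number of reads per sample that the paper states. Whether the mates of a pair were counted separately is not given in the sources used here, so a recovered read may be a mate and not a whole fragment, and read counts and floors are in that unit. Values are normalized counts, which are read counts divided by the size factor of the library. A level of 3 reads was equal to 2.15 to 4.89 normalized counts, depending on the library, and such floors cover counting error only. In 12 pairs of replicates the variance ran from 9.06 to 46.2 times that of counting alone (chi-square over its degrees of freedom), so errors are the SD of 3 libraries. NR3C1 itself was present in every library and lower in S134A-GR cells, with 12729, 12139 and 10444 normalized counts in the wt-GR libraries and 8516, 8971 and 8959 in the S134A-GR libraries under vehicle (log2 fold change -0.41 ± 0.066, SE, adjusted p = 0.000120). These are RNA values. For total GR protein, the paper reports no difference between wt-GR and S134A-GR cells on Western blots. The line markers VIM and CD44 were abundant, and ESR1 and CDH1 had at most 14 reads in any library. ERBB2, set as a low marker of a triple-negative line, was measured at 7229 to 10589 normalized counts. In such bulk samples, fewer cells of a type and less RNA per cell cannot be told apart.

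Per kilobase of exon, KLF6 was the most abundant member in every group and KLF7 or KLF13 the least abundant under vehicle. In wt-GR cells under vehicle the level per kilobase was 4093 ± 167 (SD, n = 3) normalized counts for KLF6, which is expressed in most tissues. KLF16 (1490 ± 114) and KLF10 (1464 ± 52.9) came next and overlapped each other. KLF4 followed at 753 ± 26.0. KLF3 (455 ± 21.4) and KLF2 (411 ± 64.6) overlapped. KLF5 followed at 313.5 ± 11.5 and KLF11 at 235 ± 15.3. KLF13 (106 ± 5.88) and KLF7 (103 ± 7.45) overlapped at the end. With the length of the canonical transcript in place of all exons, KLF10 stood above KLF16 without overlap, KLF2 overlapped KLF5 in place of KLF3, and KLF13 and KLF7 no longer overlapped.

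**Figure D1:**
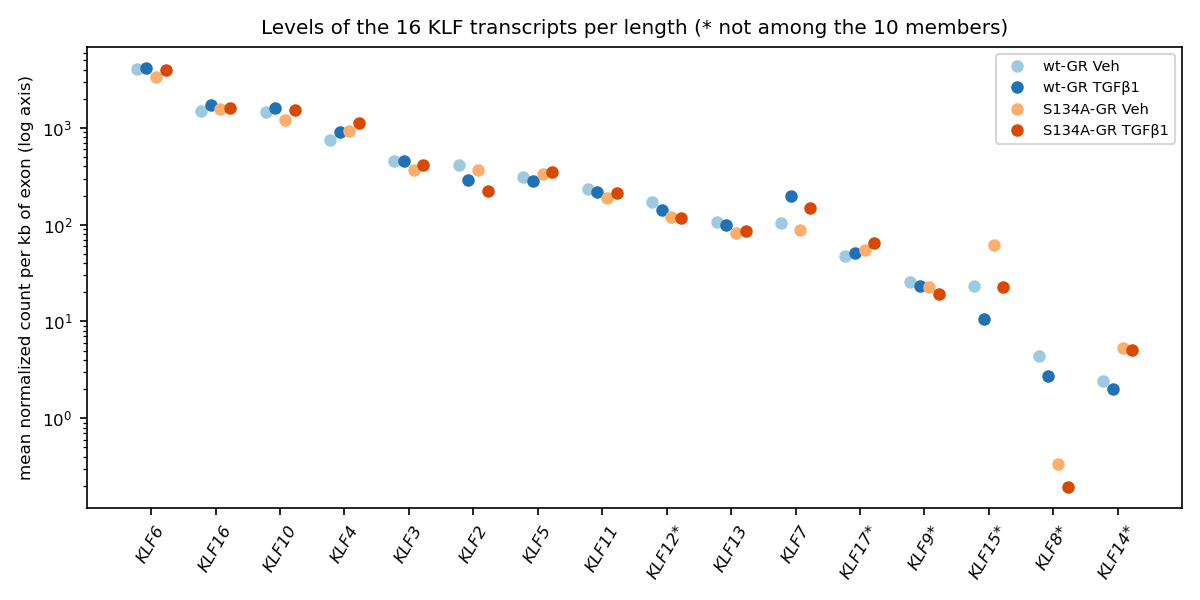
Mean normalized count per kilobase of exon (log axis) of the 16 KLF genes present in the files, for the 4 groups. KLF6 lies at the top in all groups, KLF7 is higher with TGFβ1 in both lines, and KLF8 and KLF14 lie at the bottom in all groups and differ between the lines.

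The first question was how KLF transcripts responded to 6 h of TGFβ1 in each line. KLF7, KLF4 and KLF10 rose in both lines and KLF2 fell in both. In wt-GR cells 4 of the 10 members rose (KLF4, KLF7, KLF10 and KLF16) and 1 fell (KLF2), where the same test called 21.0% of all 18579 genes tested (11.2% higher and 9.82% lower). In S134A-GR cells 5 rose (KLF3, KLF4, KLF6, KLF7 and KLF10) and 1 fell (KLF2), where it called 18.7% of all genes (10.0% higher and 8.69% lower). A gene was called at an adjusted p under 0.05 in limma's moderated test, with Benjamini-Hochberg adjustment over all genes tested. The libraries of the groups did not overlap for 6 members in wt-GR cells (33.9% of all genes) and for 7 in S134A-GR cells (35.6%). No member reached an absolute log2 fold change of 1, which 2.29% of all genes did with wt-GR and 1.66% did with S134A-GR at the same adjusted p. The median log2 fold change of the 10 members was 0.021 with wt-GR and 0.18 with S134A-GR, and that of all genes was -0.0046 and -0.0097. The members were chosen with earlier results of these data known, and had far more reads than a gene needed to be tested. So the counts of members set against shares of all genes, here and between the lines below, are no test of the family.

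**Figure D2:**
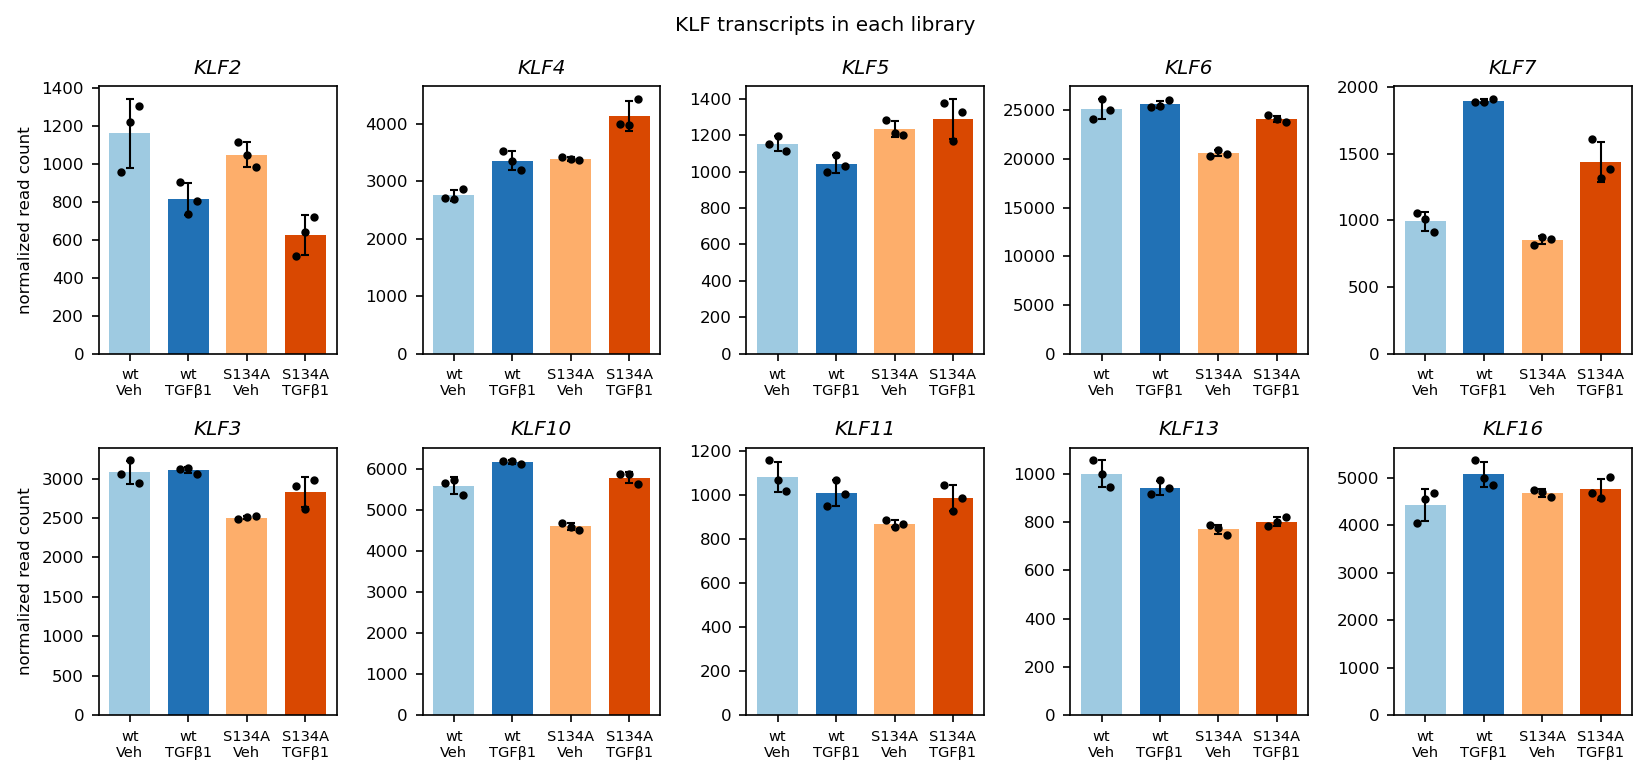
Normalized read counts of the 10 KLF members, with the activator-type members in the upper row and the repressors in the lower row. Bars are means of 3 libraries, error bars are SD and points are libraries. KLF7 is high in all 6 libraries with TGFβ1, and KLF2 is lowest in S134A-GR cells with TGFβ1.

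Of the activator-type members, KLF7 (chr2:207074137-207173856, minus strand), best known from neurons, changed most. KLF7 had normalized counts of 1056, 1008 and 915 in wt-GR cells under vehicle and 1886, 1889 and 1914 under TGFβ1, with means of 993 ± 71.6 and 1896 ± 15.0 (SD, n = 3). In S134A-GR cells it had 816, 877 and 861 under vehicle and 1608, 1321 and 1388 under TGFβ1, with means of 852 ± 31.5 and 1439 ± 150.2. All libraries with TGFβ1 lay above all libraries with vehicle, and the wt-GR libraries under TGFβ1 were the highest. The log2 fold change under TGFβ1 was 0.94 ± 0.074 (SE, adjusted p = 4.90e-07) in wt-GR cells, or 1.91-fold, and 0.75 ± 0.074 (SE, adjusted p = 5.25e-06) in S134A-GR cells, or 1.68-fold.

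KLF2 (chr19:16324826-16328685, plus strand) moved the other way. KLF2 had normalized counts of 955, 1219 and 1305 in wt-GR cells under vehicle and 904, 734 and 803 under TGFβ1, with means of 1159 ± 182 and 814 ± 85.8 (SD, n = 3). Libraries of S134A-GR cells had 1112, 1045 and 980.0 under vehicle and 512, 639 and 718 under TGFβ1, with means of 1046 ± 66.1 and 623 ± 104. The groups did not overlap within a line, although library 1 of the wt-GR cells under vehicle (955), which was also the shallowest library of the 12, came close to library 1 of those under TGFβ1 (904). KLF2 fell by 0.50 ± 0.13 (SE) on the log2 scale in wt-GR cells (adjusted p = 0.0133) and by 0.76 ± 0.13 in S134A-GR cells (adjusted p = 0.000874). The call in wt-GR cells was lost without library 2 of the wt-GR vehicle group (-0.46) and without library 2 of the wt-GR TGFβ1 group (-0.43).

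KLF4 (chr9:107484852-107490482, minus strand), one of the reprogramming factors of pluripotency, rose by nearly the same amount in both lines. KLF4 had normalized counts of 2708, 2697 and 2867 in wt-GR cells under vehicle and 3530.5, 3350.2 and 3206 under TGFβ1, with means of 2758 ± 95.2 and 3362 ± 163 (SD, n = 3). For S134A-GR cells the counts were 3432, 3383 and 3370.2 under vehicle and 4005, 3975 and 4440.1 under TGFβ1, with means of 3395 ± 32.6 and 4140.0 ± 260.3. The groups did not overlap within a line. The log2 fold change was 0.29 ± 0.051 (SE, adjusted p = 0.000981) in wt-GR cells and 0.28 ± 0.051 (SE, adjusted p = 0.00114) in S134A-GR cells. Of its exon bases, 9.75% also lie in a gene on the other strand, and the strand setting of the counting is not given in the sources used here, so reads of the pair cannot be told apart there.

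With KLF4 higher and KLF2 lower, the ratio of the pair was followed too. Per kilobase, KLF4 was measured at 1.86 ± 0.28 (SD, n = 3) times the level of KLF2 in wt-GR cells under vehicle (1.69 to 2.18 over the libraries) and at 3.20 ± 0.28 times under TGFβ1 (3.01 to 3.52). In S134A-GR cells the ratio was 2.51 ± 0.14 under vehicle (2.38 to 2.65) and 5.19 ± 0.72 under TGFβ1 (4.76 to 6.03). The 4 groups did not overlap. This ratio was chosen after the values had been seen and is given as a description.

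KLF6 (chr10:3775996-3785281, minus strand), often described as a growth suppressor, was measured at the highest counts of the family. KLF6 had normalized counts of 24146, 26192 and 25050 in wt-GR cells under vehicle and 25360, 25416 and 26067 under TGFβ1, with means of 25129 ± 1026 and 25614 ± 393 (SD, n = 3). The S134A-GR libraries had 20307, 20951 and 20508 under vehicle and 24480, 24070 and 23801 under TGFβ1, with means of 20589 ± 329 and 24117 ± 341. In S134A-GR cells all libraries with TGFβ1 lay above those with vehicle, while in wt-GR cells the treatments overlapped. The log2 fold change was 0.23 ± 0.034 (SE, adjusted p = 0.000235) in S134A-GR cells and 0.028 ± 0.034 (SE, adjusted p = 0.626) in wt-GR cells. KLF5 (chr13:73054976-73077541, plus strand), which is known to favor proliferation of epithelial cells, did not pass the test in either line. KLF5 had normalized counts of 1152, 1196 and 1112 in wt-GR cells under vehicle and 999, 1093 and 1031 under TGFβ1, with means of 1153 ± 42.2 and 1041 ± 48.1 (SD, n = 3). In S134A-GR cells it had 1284, 1212 and 1202 under vehicle and 1377, 1167 and 1328 under TGFβ1, with means of 1233 ± 44.6 and 1291 ± 109.8. Its log2 fold change was -0.15 ± 0.068 (SE, adjusted p = 0.147) in wt-GR cells, where the treatments did not overlap, and 0.064 ± 0.068 (SE, adjusted p = 0.594) in S134A-GR cells.

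Among the repressors, KLF10 (on chromosome 8), the TGFβ-inducible early gene 1, rose in both lines. KLF10 had normalized counts of 5670.3, 5745 and 5364 in wt-GR cells under vehicle and 6206, 6187 and 6124 under TGFβ1, with means of 5593 ± 202 and 6172 ± 42.8 (SD, n = 3). Libraries of S134A-GR cells had 4678, 4597 and 4524 under vehicle and 5882, 5872 and 5625 under TGFβ1, with means of 4599.7 ± 77.0 and 5793 ± 146. All libraries with TGFβ1 lay above those with vehicle of the same line. The log2 fold change was 0.14 ± 0.037 (SE, adjusted p = 0.0122) in wt-GR cells and 0.33 ± 0.037 (SE, adjusted p = 1.56e-05) in S134A-GR cells, which are increases of 1.10-fold and 1.26-fold. Its paralog KLF11 (chr2:10042849-10054836, plus strand) did not pass the test. KLF11 had normalized counts of 1157, 1065 and 1019 in wt-GR cells under vehicle and 951, 1069 and 1002 under TGFβ1, with means of 1080.5 ± 70.0 and 1007 ± 59.3 (SD, n = 3). For S134A-GR cells the counts were 887, 854 and 866 under vehicle and 1044, 926 and 984 under TGFβ1, with means of 869 ± 16.9 and 985 ± 58.9. KLF11 had a log2 fold change of -0.10 ± 0.069 (SE, adjusted p = 0.355) in wt-GR cells, with overlap, and 0.18 ± 0.069 (SE, adjusted p = 0.0888) in S134A-GR cells, without overlap. A gene on the other strand covers 9.06% of its exon bases.

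The CtBP-binding KLF3 (chr4:38664197-38701517, plus strand) rose in S134A-GR cells. KLF3 had normalized counts of 3060.0, 3232 and 2944 in wt-GR cells under vehicle and 3117, 3137 and 3060.4 under TGFβ1, with means of 3079 ± 145 and 3105 ± 39.8 (SD, n = 3). The S134A-GR libraries had 2481, 2511 and 2523 under vehicle and 2899, 2609 and 2979 under TGFβ1, with means of 2505 ± 21.7 and 2829 ± 194. Its log2 fold change was 0.17 ± 0.051 (SE, adjusted p = 0.0303) in S134A-GR cells and 0.013 ± 0.051 (SE, adjusted p = 0.896) in wt-GR cells. The call in S134A-GR cells was lost in 7 of 22 alternative settings, among them a fit of only the groups compared and the fits without any one of libraries 1, 2 and 3 of the vehicle group (0.17, 0.17 and 0.18) or without library 1 or 3 of the TGFβ1 group (0.15 and 0.13). KLF3 shares 3.91% of its exon bases with the antisense gene KLF3-AS1.

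The SIN3-binding KLF16 (chr19:1852399-1863579, minus strand) rose in wt-GR cells. KLF16 had normalized counts of 4038, 4540.3 and 4679 in wt-GR cells under vehicle and 5366, 4986 and 4851 under TGFβ1, with means of 4419 ± 338 and 5068 ± 267 (SD, n = 3). In S134A-GR cells it had 4738, 4692 and 4586 under vehicle and 4668, 4580.4 and 5008 under TGFβ1, with means of 4672 ± 78.0 and 4752 ± 226. The log2 fold change of KLF16 was 0.20 ± 0.057 (SE, adjusted p = 0.0220) in wt-GR cells and 0.023 ± 0.057 (SE, adjusted p = 0.840) in S134A-GR cells. Its call was lost without library 1 of the wt-GR vehicle group (0.14), the shallowest and the lowest for KLF16, without library 1 of the wt-GR TGFβ1 group (0.16), and in the fit of only these groups. Of its exon bases, 16.3% also lie in a gene on the other strand. KLF13 (chr15:31326835-31435665, plus strand), which carries the same kind of SIN3-binding motif, was measured at -0.085 ± 0.060 (SE, adjusted p = 0.381) in wt-GR cells and 0.058 ± 0.060 (SE, adjusted p = 0.584) in S134A-GR cells on the log2 scale, and its treatments overlapped in both lines.

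How far the 2 responses differed was tested directly, with the wt-GR response subtracted from the S134A-GR response. No member passed the test in limma, where 0.414% of all genes did (0.167% with the larger value in S134A-GR cells and 0.248% with the smaller), and none passed in edgeR. DESeq2 called 1, KLF6. At an unadjusted p under 0.05 there were 6 of 10 members, 5 with the larger value in S134A-GR cells and 1 with the smaller, against 9.30% of all genes. The members were chosen with earlier results of these data known, and their values share the same libraries. Each had at least 10781 reads, whereas 10 reads were enough for a gene to be tested. So these shares are no test of the family. The difference was 0.20 ± 0.047 (SE, adjusted p = 0.124) for KLF6, with a 95% confidence interval of 0.098 to 0.30 and an unadjusted p of 0.000904 (adjusted p in DESeq2 = 0.0157). For KLF10 it was 0.19 ± 0.052 (SE, adjusted p = 0.217), with an interval of 0.079 to 0.30. For KLF11 it was 0.28 ± 0.097 (SE, adjusted p = 0.369), with an interval of 0.071 to 0.49. The other members under that unadjusted p were KLF5 (0.21), KLF3 (0.16) and KLF16 (-0.18).

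For the other 4 members the interval of the difference included 0. For KLF2 the difference was -0.26 ± 0.18 (SE, adjusted p = 0.702), with a 95% confidence interval from -0.65 to 0.14. For KLF7 it was -0.18 ± 0.10 (SE, adjusted p = 0.620), from -0.41 to 0.042. For KLF4 it was -0.0011 ± 0.072 (SE), from -0.16 to 0.15, and its sign changed with the setting. A p that misses the threshold does not show that the lines respond alike. The remaining member, KLF13, had a difference of 0.14, from -0.041 to 0.33.

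**Figure D3:**
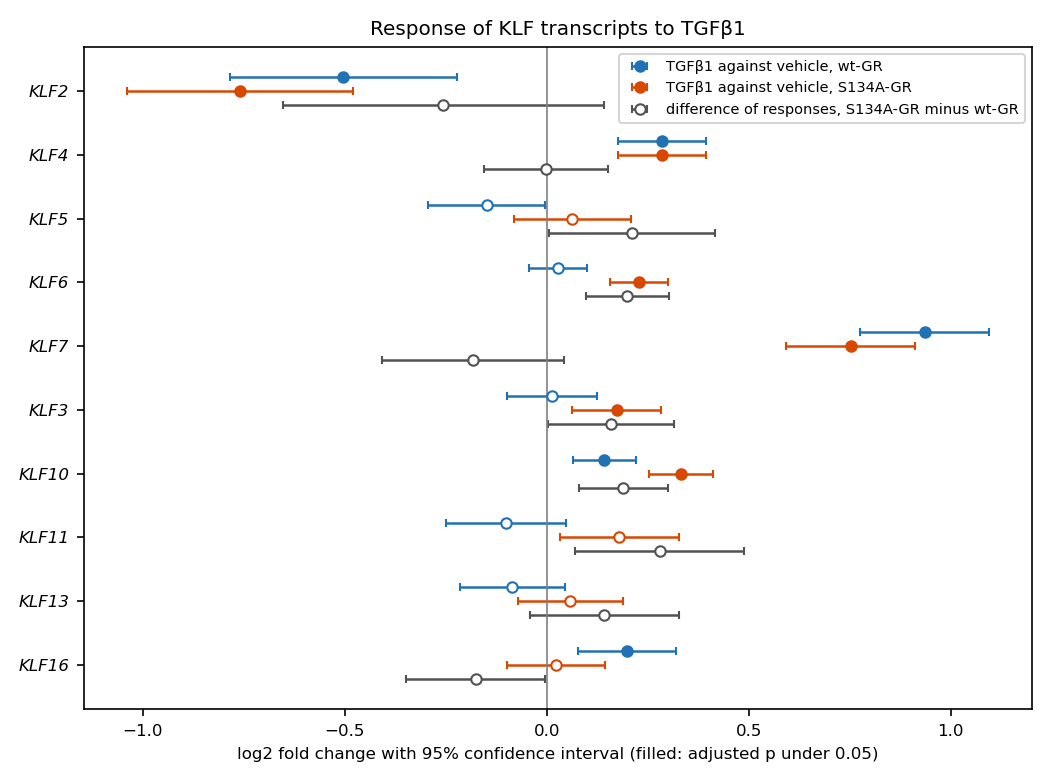
Log2 fold change of each KLF member under TGFβ1 in wt-GR cells (blue) and S134A-GR cells (orange), and the difference of the responses (grey), with 95% confidence intervals from limma. Filled points passed an adjusted p under 0.05. KLF7 lies farthest to the right and KLF2 farthest to the left in both lines, and no difference of responses is filled.

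The second question was how the lines differed under the same treatment. These comparisons use the same 12 libraries as those of TGFβ1, so the values are set side by side and are not separate evidence. Under vehicle, 6 of the 10 members were lower in S134A-GR cells (KLF3, KLF6, KLF7, KLF10, KLF11 and KLF13) and 1 was higher (KLF4). The lines differed in 51.5% of all genes (25.0% higher and 26.5% lower), so a count of 7 of 10 is to be read against that share. The groups did not overlap for 8 members, against 57.3% of all genes. Under TGFβ1, 5 members were lower (KLF2, KLF3, KLF6, KLF7 and KLF13) and 2 higher (KLF4 and KLF5), where 48.8% of all genes were called (23.1% higher and 25.7% lower). The groups did not overlap for 8 members, against 55.6% of all genes. No member reached an absolute log2 fold change of 1 between the lines, against 9.51% of all genes under vehicle and 8.46% under TGFβ1. Without library 1 of the wt-GR TGFβ1 group, 4 members were called under TGFβ1, as KLF2, KLF3 and KLF6 lost the call. The median log2 fold change of the 10 members was -0.25 under vehicle and -0.092 under TGFβ1, against 0.019 and 0.012 for all genes.

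KLF4 was higher in S134A-GR cells by a similar factor under both treatments. Its log2 fold change between the lines was 0.30 ± 0.051 (SE, adjusted p = 0.000179) under vehicle and 0.30 ± 0.051 (SE, adjusted p = 0.000204) under TGFβ1. All S134A-GR libraries were above all wt-GR libraries of the same treatment, and the level of S134A-GR cells under vehicle, 3395 ± 32.6 (SD, n = 3), was close to that of wt-GR cells under TGFβ1, 3362 ± 163. KLF5 was also higher in S134A-GR cells under TGFβ1, with a log2 fold change of 0.31 ± 0.068 (SE, adjusted p = 0.00165). Under vehicle it was 0.096 ± 0.068 (SE, adjusted p = 0.259), where the libraries did not overlap.

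KLF7 and KLF13 were lower in S134A-GR cells under both treatments. For KLF7 the log2 fold change was -0.22 ± 0.074 (SE, adjusted p = 0.0228) under vehicle and -0.40 ± 0.074 (SE, adjusted p = 0.000411) under TGFβ1. The call under vehicle was lost without library 1 (-0.17) or 2 (-0.21) of the wt-GR group or library 1 of the S134A-GR group (-0.19). KLF13, known from T cells as an activator of a chemokine gene, changed with line but not, past the test, with treatment. KLF13 had normalized counts of 1058, 1001 and 947 in wt-GR cells under vehicle and 917, 974 and 941 under TGFβ1, with means of 1002 ± 55.4 and 944 ± 28.8 (SD, n = 3). Libraries of S134A-GR cells had 788, 775 and 749 under vehicle and 786, 802 and 820.5 under TGFβ1, with means of 771 ± 19.8 and 803 ± 17.5. Its log2 fold change between the lines was -0.38 ± 0.060 (SE, adjusted p = 0.000117) under vehicle and -0.23 ± 0.060 (SE, adjusted p = 0.00524) under TGFβ1.

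KLF3, KLF6, KLF10 and KLF11 were each lower in S134A-GR cells under vehicle by about the same amount, and their differences under TGFβ1 were smaller. Under vehicle the log2 fold change was -0.30 ± 0.051 (SE, adjusted p = 0.000228) for KLF3. It was -0.29 ± 0.034 (SE, adjusted p = 6.18e-06) for KLF6. It was -0.28 ± 0.037 (SE, adjusted p = 1.68e-05) for KLF10 and -0.31 ± 0.069 (SE, adjusted p = 0.00153) for KLF11. Under TGFβ1 KLF3 was at -0.14 ± 0.051 (SE, adjusted p = 0.0405) and KLF6 at -0.087 ± 0.034 (SE, adjusted p = 0.0452). Each of these 2 calls was lost in 9 of 22 settings, among them the fits without any one library of the wt-GR TGFβ1 group, where KLF3 was at -0.13, -0.13 and -0.15 and KLF6 at -0.094, -0.092 and -0.074. The calls were also lost without any one library of the S134A-GR vehicle group, which left the values as they were, without library 2 of the S134A-GR TGFβ1 group (-0.079 for KLF3 and -0.086 for KLF6), for KLF6 without library 3 of that group (-0.077) and for KLF3 in the fit of only the groups compared. KLF10 was at -0.092 ± 0.037 (SE, adjusted p = 0.0514), just above the threshold and so not called, and was called in 8 of 22 settings. KLF11 was at -0.033 ± 0.069 (SE, adjusted p = 0.733), with overlap of the libraries. That these differences became smaller under TGFβ1 is the same quantity as the difference of responses, which did not pass the test in limma.

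KLF2 was lower in S134A-GR cells under TGFβ1, with a log2 fold change of -0.39 ± 0.13 (SE, adjusted p = 0.0222). That call was lost without library 1 of the wt-GR TGFβ1 group (-0.31) or library 1 of the S134A-GR TGFβ1 group (-0.26). Under vehicle its log2 fold change was -0.14 ± 0.13 (SE, adjusted p = 0.406) with overlap. KLF16 was at 0.083 ± 0.057 (SE, adjusted p = 0.241) under vehicle and -0.092 ± 0.057 (SE, adjusted p = 0.200) under TGFβ1, and its libraries overlapped in both. The lines also differed in NR3C1 and in many other genes, and what these have to do with the KLF values was not tested.

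**Figure D4:**
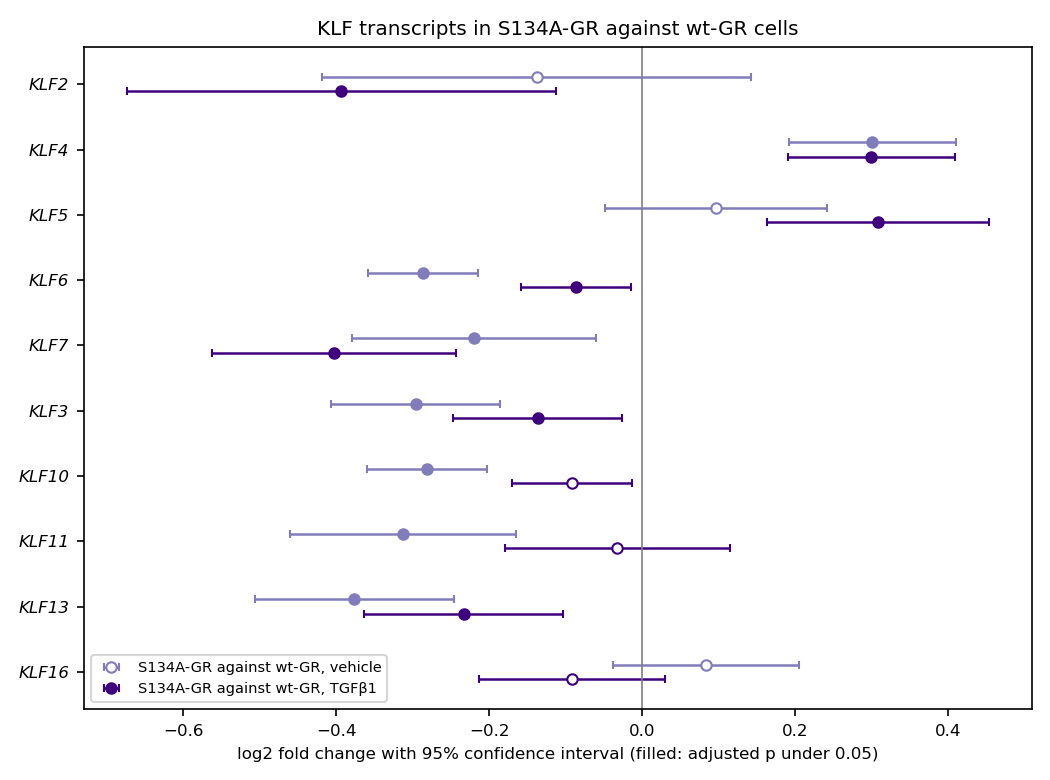
Log2 fold change of each KLF member in S134A-GR against wt-GR cells under vehicle (light) and TGFβ1 (dark), with 95% confidence intervals from limma. Filled points passed an adjusted p under 0.05. KLF4 lies to the right at the same place under both treatments, and KLF3, KLF6, KLF10 and KLF11 lie nearer to 0 under TGFβ1 than under vehicle.

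Of the other KLF genes, 6 (KLF8, KLF9, KLF12, KLF14, KLF15 and KLF17) had values, at lower levels than most members. Counts in this and the following gene lists are to be read against the share of all genes called, which was 21.0% (wt-GR) and 18.7% (S134A-GR) under TGFβ1, and 51.5% (vehicle) and 48.8% (TGFβ1) between the lines. KLF15, known for its induction by glucocorticoids, was higher in S134A-GR cells and lower under TGFβ1. Its recovered reads were 41, 45 and 76 in wt-GR cells under vehicle and 24, 49 and 27 under TGFβ1. In S134A-GR cells they were 171, 169 and 206 under vehicle and 71, 71 and 75 under TGFβ1. Between the lines KLF15 was at 1.42 ± 0.22 (SE, adjusted p = 7.46e-05) under vehicle on the log2 scale and 1.08 ± 0.22 (SE, adjusted p = 0.000885) under TGFβ1. Under TGFβ1 it fell by 1.07 ± 0.22 (SE) in wt-GR cells and by 1.41 ± 0.22 in S134A-GR cells.

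KLF8, a repressor of the KLF3 type, was nearly absent from S134A-GR cells. It had 33, 57 and 50 reads in wt-GR cells under vehicle and 23, 56 and 37 under TGFβ1, against 4, 1 and 9 and then 0, 3 and 6 reads in S134A-GR cells. Between the lines the log2 fold change was -3.67 ± 0.61 (SE, adjusted p = 0.000148) under vehicle and -3.66 ± 0.61 (SE, adjusted p = 0.000169) under TGFβ1, values that depend on the pseudocount at such counts. In S134A-GR cells KLF14 was higher (1.17 ± 0.42 under vehicle and 1.26 ± 0.42 under TGFβ1, SE, with adjusted p = 0.0309 and adjusted p = 0.0221), on 4 to 26 reads per library, and its call under vehicle was lost in 8 of 22 settings, among them edgeR and DESeq2. Under TGFβ1 it was lost without library 1 of the wt-GR TGFβ1 group or library 1 or 3 of the S134A-GR TGFβ1 group, with values from 1.01 to 1.24. KLF12, another CtBP-binding repressor, was reduced with S134A-GR (-0.51 ± 0.088 under vehicle and -0.28 ± 0.088 under TGFβ1, SE, with adjusted p = 0.000215 and adjusted p = 0.0186). The latter call was lost without library 2 of the wt-GR TGFβ1 group (-0.25) or library 2 (-0.21) or 3 (-0.26) of the S134A-GR TGFβ1 group. Its decrease under TGFβ1 in wt-GR cells (-0.26 ± 0.088, SE, adjusted p = 0.0481) was lost in 12 of 22 settings. KLF9 and KLF17 did not pass the test in any comparison. As a median log2 fold change, the 6 genes were at -0.20 (wt-GR) and -0.13 (S134A-GR) under TGFβ1, and 0.020 (vehicle) and 0.061 (TGFβ1) between the lines.

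The SP factors share the zinc fingers of the KLFs. Of 6 tested SP genes, 3 were lower in S134A-GR cells under vehicle and 1 under TGFβ1. SP3 was lower under both (-0.40 ± 0.042 and -0.37 ± 0.042, SE, with adjusted p = 2.09e-06 and adjusted p = 5.24e-06). SP1 was at -0.18 ± 0.059 (SE, adjusted p = 0.0209) and SP2 at -0.14 ± 0.047 (SE, adjusted p = 0.0253) under vehicle, calls that were lost in 5 and 4 of 22 settings. TGFβ1 lowered SP5 in both lines, with -0.31 ± 0.10 (SE, adjusted p = 0.0468) in wt-GR cells and -0.37 ± 0.10 (SE, adjusted p = 0.0226) in S134A-GR cells, calls that were lost in 15 and 4 of 22 settings. The 4 were the fit of only the groups compared and those without library 1 (-0.36) or 2 (-0.34) of the S134A-GR vehicle group or library 1 of the S134A-GR TGFβ1 group (-0.29). SP4 and SP6 did not pass the test in any comparison, and SP7, with 5 reads in all, was not tested. The median log2 fold change of the 6 SP genes was -0.090 (wt-GR) and -0.054 (S134A-GR) under TGFβ1, and -0.15 (vehicle) and -0.071 (TGFβ1) between the lines.

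Of 10 corepressors and coactivators of KLFs, 1 rose and 2 fell under TGFβ1 in each line. SIN3B, which encodes a SIN3 corepressor, fell by 0.51 ± 0.046 (SE) in wt-GR cells and by 0.52 ± 0.046 in S134A-GR cells (adjusted p = 1.60e-06 and 1.63e-06). Its paralog SIN3A was not called, at 0.018 ± 0.048 (SE, adjusted p = 0.849) in wt-GR cells and 0.047 ± 0.048 (SE, adjusted p = 0.576) in S134A-GR cells. SIN3B had normalized counts of 12721, 12830 and 12788 in wt-GR cells under vehicle and 9261, 8502 and 9132 under TGFβ1, with means of 12780 ± 55.3 and 8965 ± 406 (SD, n = 3). For S134A-GR cells the counts were 10214, 10226 and 10064 under vehicle and 6600.4, 7169 and 7532 under TGFβ1, with means of 10168 ± 90.3 and 7101 ± 469.8. All libraries with TGFβ1 lay below all libraries with vehicle. The acetyltransferase KAT2B fell by 0.73 ± 0.056 and by 0.50 ± 0.056, and the deacetylase HDAC2 rose by 0.12 ± 0.038 and 0.21 ± 0.038. The first of these values of HDAC2 was lost in 5 of 22 settings. Between the lines, 1 was higher and 4 were lower under vehicle, and 1 was higher and 5 were lower under TGFβ1. CTBP1, which encodes a CtBP corepressor, was the higher one under both treatments, and under vehicle it was at 0.36 ± 0.039 (SE, adjusted p = 2.54e-06). Its paralog CTBP2 was not called, at 0.013 ± 0.038 (SE, adjusted p = 0.803) under vehicle and -0.015 ± 0.038 (SE, adjusted p = 0.772) under TGFβ1. HDAC2 (-0.39 ± 0.038, SE, adjusted p = 1.08e-06) and KAT2B (-0.42 ± 0.056, SE, adjusted p = 2.24e-05) had the largest decreases under vehicle. Under TGFβ1 the largest were those of SIN3B (-0.34 ± 0.046, SE, adjusted p = 2.73e-05), HDAC2 (-0.30 ± 0.038, SE, adjusted p = 1.42e-05) and HDAC1 (-0.29 ± 0.032, SE, adjusted p = 3.54e-06). As a median log2 fold change, the 10 genes were at 0.034 (wt-GR) and 0.039 (S134A-GR) under TGFβ1, and -0.11 (vehicle) and -0.061 (TGFβ1) between the lines.

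Of the 7 genes of the MEK5-ERK5 cascade and MEF2 factors that lie upstream of KLF2 and KLF4, 1 rose and 2 fell under TGFβ1 in wt-GR cells, and 2 rose and 2 fell in S134A-GR cells. The kinase MAP3K2 rose in both lines (0.32 ± 0.072 and 0.44 ± 0.072, SE, with adjusted p = 0.00566 and adjusted p = 0.000604). MAP3K3 (-0.16 ± 0.037, SE, adjusted p = 0.00597) and MAP2K5 (-0.17 ± 0.051, SE, adjusted p = 0.0309) fell in wt-GR cells, the latter lost in 5 of 22 settings. MAP2K5 also fell in S134A-GR cells (-0.19 ± 0.051, SE, adjusted p = 0.0180), a call that was lost in 4 of 22 settings. MEF2C fell by 0.69 ± 0.14 (SE) in S134A-GR cells (adjusted p = 0.00345), a call that was lost in the fit of only those groups. In wt-GR cells MEF2C was at -0.42 ± 0.14 (SE, adjusted p = 0.0502 in limma), just past the threshold and so not called, without overlap of the libraries. Its difference of responses was -0.27 ± 0.20 (SE, adjusted p = 0.713). MAPK7, which encodes ERK5, rose in S134A-GR cells (0.20 ± 0.048, SE, adjusted p = 0.00995). Between the lines none was higher, and 4 were lower under vehicle and 3 under TGFβ1. The largest was MEF2C, with -0.74 ± 0.14 (SE, adjusted p = 0.000548) under vehicle and -1.01 ± 0.14 (SE, adjusted p = 4.14e-05) under TGFβ1. MEF2C had normalized counts of 399, 425 and 361 in wt-GR cells under vehicle and 314, 277 and 291 under TGFβ1, with means of 395 ± 32.0 and 294 ± 19.0 (SD, n = 3). The S134A-GR libraries had 218, 251 and 238 under vehicle and 174, 155 and 114 under TGFβ1, with means of 236 ± 16.9 and 148 ± 30.8. All S134A-GR libraries were below all wt-GR libraries. MEF2A and MEF2D had far higher counts than MEF2C, with vehicle means of 7486.5 and 8233 (wt-GR) and 6948 and 6472 (S134A-GR). Neither was called under TGFβ1 in either line. MEF2A was at -0.11 ± 0.046 (SE, adjusted p = 0.119) with wt-GR and -0.041 ± 0.046 (SE, adjusted p = 0.621) with S134A-GR. MEF2D was at 0.021 ± 0.042 (SE, adjusted p = 0.784) and 0.028 ± 0.042 (SE, adjusted p = 0.724). Between the lines MEF2D was at -0.35 ± 0.042 (SE, adjusted p = 8.71e-06) and -0.34 ± 0.042 (SE, adjusted p = 1.17e-05). MAP3K2 was at -0.34 ± 0.072 (SE, adjusted p = 0.00116) and -0.22 ± 0.072 (SE, adjusted p = 0.0204), the latter lost in 3 of 22 settings. The median log2 fold change of the 7 genes was -0.11 (wt-GR) and -0.041 (S134A-GR) under TGFβ1, and -0.12 (vehicle) and -0.037 (TGFβ1) between the lines.

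Of 7 ubiquitin ligases that act on KLF proteins, 2 rose and 1 fell under TGFβ1 in each line. SMURF2 rose by 0.54 ± 0.034 (SE) in wt-GR cells and by 0.69 ± 0.034 in S134A-GR cells, and SMURF1 rose by 0.42 ± 0.049 and 0.35 ± 0.049. FBXO32 fell by 0.89 ± 0.045 and 0.74 ± 0.045. Between the lines, 1 was higher and 3 lower under vehicle, and 3 were higher and 3 lower under TGFβ1. FBXW7, the ligase of KLF2 and KLF5, was higher in S134A-GR cells (0.33 ± 0.068 and 0.29 ± 0.068, SE, with adjusted p = 0.000886 and adjusted p = 0.00263), SMURF2 was at -0.32 ± 0.034 (SE, adjusted p = 2.69e-06) under vehicle and ITCH at -0.15 ± 0.044 (SE, adjusted p = 0.0110). Under TGFβ1 FBXO32 was at 0.18 ± 0.045 (SE, adjusted p = 0.00440) and VHL at -0.17 ± 0.044 (SE, adjusted p = 0.00566). The ITCH value was lost without library 1 of the S134A-GR vehicle group (-0.13). As a median log2 fold change, the 7 ligases were at 0.065 (wt-GR) and 0.035 (S134A-GR) under TGFβ1, and 0.026 (vehicle) and -0.029 (TGFβ1) between the lines.

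Of 13 genes commonly given as KLF targets, 6 rose and 3 fell under TGFβ1 in wt-GR cells, and 6 rose and 1 fell in S134A-GR cells, against 21.0% and 18.7% of all genes called in either direction. SMAD7, the inhibitory SMAD, rose most in S134A-GR cells (1.32 ± 0.067, SE, adjusted p = 6.47e-09) and also in wt-GR cells (1.19 ± 0.067, SE, adjusted p = 1.49e-08). SMAD7 had normalized counts of 1009, 875 and 902 in wt-GR cells under vehicle and 2192, 2143 and 2029 under TGFβ1, with means of 929 ± 70.5 and 2121 ± 83.7 (SD, n = 3). In S134A-GR cells it had 874, 833 and 829 under vehicle and 2224, 1939 and 2169 under TGFβ1, with means of 845 ± 24.6 and 2110.5 ± 151. All libraries with TGFβ1 lay above all with vehicle. In wt-GR cells PLAU (1.12 ± 0.040, SE, adjusted p = 1.08e-10) and TGFB1 (0.94 ± 0.053, SE, adjusted p = 1.49e-08) had the next largest increases. In S134A-GR cells THBD, an endothelial target of KLF2 and KLF4, fell by 0.79 ± 0.061 (SE), and CDKN1A, a target of KLF4 and KLF6, rose by 0.63 ± 0.035. Both moved the same way in wt-GR cells, where THBD fell by 0.52 ± 0.061 (SE) and CDKN1A rose by 0.81 ± 0.035. THBD had normalized counts of 2307, 2480.5 and 2521 in wt-GR cells under vehicle and 1829, 1708 and 1572 under TGFβ1, with means of 2436 ± 113 and 1703 ± 129 (SD, n = 3). Libraries of S134A-GR cells had 2495, 2473 and 2492 under vehicle and 1441, 1363 and 1522 under TGFβ1, with means of 2487 ± 11.6 and 1442 ± 79.7. THBD was lower with TGFβ1 in all libraries of both lines. Between the lines, 2 were higher and 6 lower under vehicle, and 2 higher and 8 lower under TGFβ1, where 51.5% and 48.8% of all genes were called. NOS3, another endothelial target of KLF2, was at -0.79 ± 0.25 (SE, adjusted p = 0.0172) under vehicle and -1.21 ± 0.25 (SE, adjusted p = 0.00116) under TGFβ1, on 643 reads over the 12 libraries, and the former was lost without library 2 of the S134A-GR vehicle group (-0.65). ENG was at 0.56 ± 0.033 (SE, adjusted p = 8.68e-09) and CCND1 at -0.55 ± 0.039 (SE, adjusted p = 4.66e-08) under vehicle. Under TGFβ1 TGFB1 was at -0.84 ± 0.053 (SE, adjusted p = 1.67e-08) and S1PR1 at 0.63 ± 0.16 (SE, adjusted p = 0.00555). The median log2 fold change of the 13 genes was 0.032 (wt-GR) and 0.072 (S134A-GR) under TGFβ1, and -0.13 (vehicle) and -0.24 (TGFβ1) between the lines. For 3 genes of this list, PLAU, TGFB1 and ENG, the response to TGFβ1 was smaller in S134A-GR cells, with a difference of responses of -0.54 ± 0.056 (SE, adjusted p = 0.000909), -0.48 ± 0.075 (SE, adjusted p = 0.0126) and -0.24 ± 0.047 (SE, adjusted p = 0.0446). The same test called 0.414% of all genes (0.248% with the smaller value in S134A-GR cells). This list was chosen with earlier results of these data known, so its count is no test of the list. The ENG call was lost in 14 of 21 settings and the TGFB1 call in 2. KLF proteins were not measured.

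The genes most like a member across the 12 libraries were sought for the members whose group means spanned at least 0.8 on the log2 scale, which were KLF7 (1.15) and KLF2 (0.90), among 12467 genes with a mean of at least 100 normalized counts. For KLF7 they were GNA12 (Pearson r of 0.993), MICAL2 (0.989) and FURIN (0.988). For KLF2 they were OCEL1 (0.965), ENTPD6 (0.965) and SHB (0.960). These points share 4 groups and the scaling of each library, so the values of r describe likeness and carry no p. The other 8 members spanned 0.20 (KLF16) to 0.58 (KLF4).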

How the data were processed

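RNA-seq of MDA-MB-231 cells was available as 12 libraries (75-base paired-end reads), 3 in each of 4 groups, with groups taken from the GEO labels. For 19907 gene symbols the authors deposited a signal, normalized counts. They had trimmed the reads (Trimmomatic), aligned these to hg38 (HISAT2), counted them per gene (featureCounts) and divided the counts by size factors of DESeq2 1.22.2. The annotation and strand setting of the counting are not given in the sources used here. All values (100% in each library) came out as whole numbers of reads, within a tolerance of 0.001, once divided by the value of 1 read.

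Genes with at least 10 reads over the 12 libraries (18579) were tested after a log2 transform with 1 added to each normalized count as pseudocount, with limma 3.58.1 in R 4.3.3 (4 group means, moderated with a trend, two-sided, Benjamini-Hochberg adjustment over all genes tested). Fold changes are on that scale and understate those of low genes. On the recovered reads, over all genes, edgeR 4.0.16 called 9452, 9106, 3892, 3450 and 78 genes in the 5 comparisons (lines under vehicle, lines under TGFβ1, TGFβ1 in wt-GR, TGFβ1 in S134A-GR, difference of responses), DESeq2 1.42.0 called 9406, 9146, 4276, 4045 and 211, and limma called 9569, 9070, 3910, 3475 and 77. The pipeline was tested on simulated data. The other alternatives were pseudocounts of 0.5 and 16, other filters, TMM and RLE scaling, a replicate block, only the groups compared, a minimum absolute log2 fold change of 1, and the omission of every library in turn.

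The members and gene lists were chosen with earlier results of these data known. All members were named, and so were the other KLF and SP genes. In the other lists at most 3 called genes with the largest change in each comparison were named, with PLAU, TGFB1 and ENG for the difference of responses. The uncalled values of SIN3A, CTBP2, MEF2A and MEF2D were added beside those of their paralogs. The values of THBD, CDKN1A and MEF2C in wt-GR cells and of MAP2K5 in S134A-GR cells were added beside the other line. SIN3B, KAT2B and HDAC2 are the called genes under TGFβ1 of their list in both lines, and SMURF2, SMURF1 and FBXO32 are those of theirs. NR3C1, VIM, CD44, ESR1, CDH1 and ERBB2 were set as markers of the line. Gene coordinates and exon lengths came from GENCODE on GRCh38, and promoter windows from RefSeq on GRCh38.p14. The order of levels on canonical transcripts, the alternatives for list genes and the MEF2 motif were added after seeing the data. Proteins were not used here.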

Additional observations from a re-analysis of the deposited data

Results flagged for a closer look

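No KLF member passed the test of the difference of responses to TGFβ1 in limma, although 6 of 10 had an unadjusted p under 0.05 (9.30% of all genes did) and DESeq2 called KLF6 (adjusted p = 0.0157). The members were chosen with earlier results known and had far more reads than a gene needed to be tested, so these shares are no test of the family. Among the 13 listed genes commonly given as KLF targets, 3 passed the test of the difference of responses (S134A-GR minus wt-GR). Of all genes, 0.414% did (0.248% with the smaller value in S134A-GR cells). That list was also chosen with earlier results known, so its count is no test of the list. The difference was -0.54 for PLAU, which encodes urokinase, -0.48 for TGFB1 and -0.24 for ENG, a TGFβ coreceptor. All 3 rose under TGFβ1 in both lines, with the smaller increase in S134A-GR cells. The ENG call was lost in 14 of 21 settings, and the TGFB1 call without library 2 of the wt-GR vehicle group (-0.45) or library 1 of the wt-GR TGFβ1 group (-0.47).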

How the results depend on the processing

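In 22 settings beside the one reported (21 for the difference of responses), the members gave 1090 values, of which 1033 kept direction and side of the threshold, 35 lost the call, 9 gained it and 13 changed sign. With a minimum absolute log2 fold change of 1, 0 members were called in the 4 comparisons of lines and treatments. For the difference of responses, DESeq2 called 1 member. With single libraries left out, the members called numbered 6 to 7 between the lines under vehicle, 4 to 8 under TGFβ1, 4 to 5 for TGFβ1 in wt-GR cells, 5 to 6 in S134A-GR cells and 0 to 0 for the difference of responses. The value of 4 came without library 1 of the wt-GR TGFβ1 group. All values that changed sign were small and not called. They were KLF11 between the lines under TGFβ1 (0.011 and 0.011, without library 2 of either group, in a range of -0.075 to 0.011 over the libraries left out), KLF3 under TGFβ1 in wt-GR cells (-0.018 to 0.049), KLF6 there (-0.00013 to 0.059), KLF16 under TGFβ1 in S134A-GR cells (-0.015 to 0.049), and the difference of responses of KLF4, which was 0.0027 with RLE scaling in edgeR, 0.0036 in DESeq2 and 0.012, 0.015, 0.035, 0.0067, 0.022 and 0.027 without single libraries (range -0.052 to 0.035). The cause was not tested. Replicate numbers did not pair the libraries, since deviations of libraries with the same number had a mean r of 0.00089 (-0.15 to 0.15 over 18 pairs). With a replicate block, 7, 6, 5, 5 and 0 members were called in the 5 comparisons. The block ended the calls of KLF3 (-0.14, adjusted p = 0.0620 in limma) and KLF6 (-0.087, adjusted p = 0.0573) between the lines under TGFβ1 and that of KLF3 under TGFβ1 in S134A-GR cells, and added that of KLF10 between the lines under TGFβ1. Scaling by TMM moved the median of all genes by at most 0.011 in size (-0.011 between the lines under TGFβ1). Of the called values of the other listed genes, 77 were called in every setting, 24 lost the call in at least 1, and none changed sign. KLF8, KLF14, KLF15 and NOS3 had few reads (279, 165, 1025 and 643 over the 12 libraries), while each member had at least 10781. How far depth shaped the calls was not tested.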
